A study of Mus musculus with 6 samples.

Results

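Peg10 and Sgce, Mest and Copg2, and Nap1l5 and Herc3 are 3 pairs of neighbouring genes on mouse chromosome 6, each around an imprinted control region. Their peaks were taken as every ZFP57 or KAP1 peak within the gene bodies and 20 kb on either side, in mm9 with the GENCODE M1 gene models. This gave 19 of the 123233 peaks of the 4 lists: 5 of 10667 for ZFP57 in JB1, 3 of 1318 for ZFP57 in BJ1, 5 of 38713 for KAP1 in JB1 and 6 of 72535 for KAP1 in BJ1. The 3 windows together were 468 kb long. Chromatin immunoprecipitation and sequencing (ChIP-seq) of both proteins was performed in 2 hybrid embryonic stem cell (ESC) lines, with 1 library per line and antibody. In JB1 the mother was of the JF1 strain and the father of the B6 strain, and in BJ1 the parents were exchanged. Both lines were male and were grown without feeder cells in medium with serum and leukemia inhibitory factor, and no group carried a mutation or a treatment that the other lacked. Each line is a single derivation, so that line, cross and library cannot be told apart, and no test across samples was possible.

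Imprinted genes are expressed from the allele of only 1 parent. Their control regions carry DNA methylation set in the germ cells of a parent and kept on that allele in the embryo. ZFP57 is a zinc-finger protein that binds a short motif when its CpG is methylated, and KAP1 (TRIM28) is the corepressor that it brings along, together with enzymes for histone H3 lysine 9 trimethylation and DNA methylation. In the mouse, the control regions of Peg10, Mest and Nap1l5 are known to be methylated on the maternal allele, and these genes to be expressed from the paternal one. The peak lists hold positions only, without heights and without a split of the reads by allele. They hold no expression values, so that the ESC label could not be checked against marker genes.

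The sequences under the peaks are shown first, because the 3 control regions are compared by the number and spacing of the motif they hold. All are from the plus strand of the mm9 reference, which is the B6 genome, and JF1 bases can differ from it. Capitals mark each TGCCGC or GGCCGC, or their reverse complements GCGGCA and GCGGCC. In GCGGCCGC, a GGCCGC on each strand overlap, and both were counted. The first 6 stretches lay inside the peaks of all 4 lists and hold 16 of the 25 motifs of the 3 JB1 ZFP57 peaks. The Copg2 stretch holds a pair of motifs in no peak, and the last is the centre of a ZFP57 peak with no motif.
Peg10, intron, chr6:4697854-4698030: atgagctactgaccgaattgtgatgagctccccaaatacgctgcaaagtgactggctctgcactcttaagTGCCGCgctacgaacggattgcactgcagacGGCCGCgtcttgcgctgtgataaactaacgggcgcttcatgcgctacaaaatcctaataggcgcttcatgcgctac
Mest, upstream of the inner start, chr6:30687594-30687825: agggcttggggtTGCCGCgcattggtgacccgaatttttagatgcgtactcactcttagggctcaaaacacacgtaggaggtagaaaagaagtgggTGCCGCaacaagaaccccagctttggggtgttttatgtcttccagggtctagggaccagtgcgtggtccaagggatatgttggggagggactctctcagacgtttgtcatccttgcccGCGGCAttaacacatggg
Mest, first exon of the inner start (5′ UTR), chr6:30688172-30688200: tctgcTGCCGCTGCCGCgGGCCGCcctgc
Mest, intron after that exon, chr6:30688336-30688468: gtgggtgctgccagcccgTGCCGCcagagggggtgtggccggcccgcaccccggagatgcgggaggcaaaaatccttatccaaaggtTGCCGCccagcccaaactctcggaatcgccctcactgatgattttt
Nap1l5, coding exon, chr6:58856805-58856921: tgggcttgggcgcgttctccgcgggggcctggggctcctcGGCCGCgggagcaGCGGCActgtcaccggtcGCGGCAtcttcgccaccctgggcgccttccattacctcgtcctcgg
Nap1l5, upstream of the start, chr6:58857121-58857204: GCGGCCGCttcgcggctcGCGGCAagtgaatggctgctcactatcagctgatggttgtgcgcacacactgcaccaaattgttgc
Copg2, upstream of the start, chr6:30846814-30846896: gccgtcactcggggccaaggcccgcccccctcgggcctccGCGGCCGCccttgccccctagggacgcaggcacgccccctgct
Peg10, coding exon, chr6:4705951-4706100: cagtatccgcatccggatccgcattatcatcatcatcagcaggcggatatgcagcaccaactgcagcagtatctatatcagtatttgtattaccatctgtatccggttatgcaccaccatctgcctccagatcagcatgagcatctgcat

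The 19 peaks fell on 7 separate sites. At 3 sites, 1 in each window, ZFP57 and KAP1 peaks of both lines overlapped, and these sites, chosen by this overlap, are called control regions here. Of the other 4 sites, 2 had ZFP57 in JB1 only and 2 had KAP1 in BJ1 only. In the windows, ZFP57 peaks had a density of 10.7 per Mb in JB1 and 6.41 per Mb in BJ1, against 3.64 and 0.428 per Mb over chromosome 6. KAP1 peaks had a density of 10.7 per Mb in JB1 and 12.8 per Mb in BJ1, against 14.5 and 27.6 per Mb over chromosome 6. These densities rest on 3 to 6 peaks a list, of which 3 are the control regions for which the genes were chosen, so that nothing is read from the ZFP57 densities. With flanks of 50 kb, the KAP1 density of JB1 was 15.4 per Mb, above the chromosome.

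**Figure D1:**
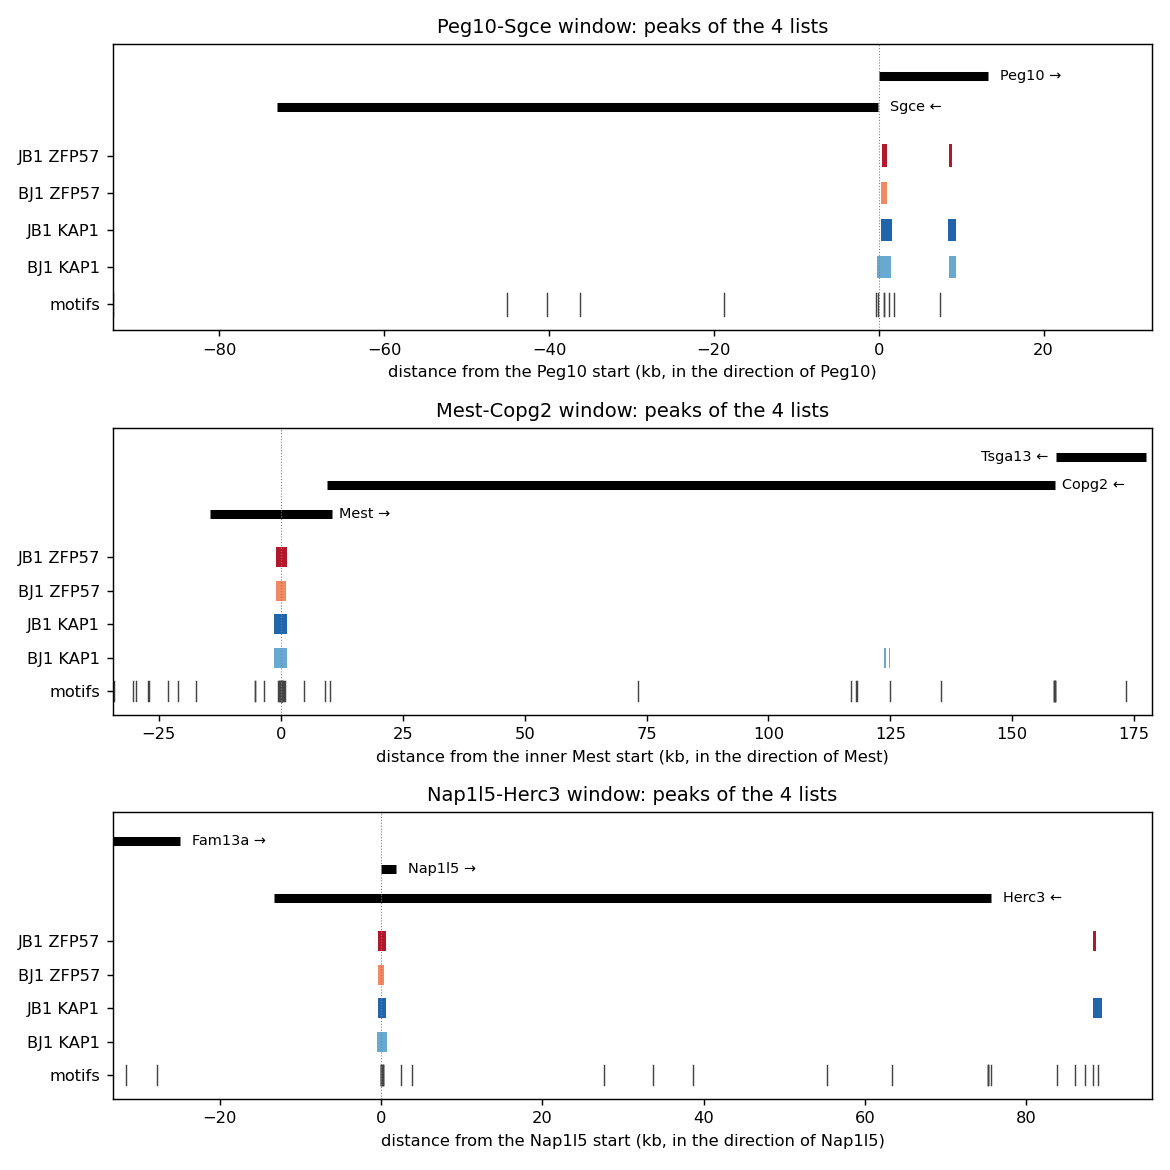
Peaks of the 4 lists in the 3 windows, with the distance in kb from the start of Peg10, the inner start of Mest or the start of Nap1l5 on the x axis. Black bars are genes with the direction of transcription, coloured bars are peaks drawn to scale and grey ticks are single motifs. In each window the 4 lists meet at 1 site, at the dotted line, and the other sites are in 1 to 3 lists.

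Of all ZFP57 peaks, 5.4% in JB1 overlapped a ZFP57 peak in BJ1, and 43.6% in BJ1 overlapped one in JB1. In the windows this was so for 3 of the 5 JB1 peaks and for all 3 BJ1 peaks. For KAP1, 4 of the 5 JB1 peaks and 4 of the 6 BJ1 peaks overlapped a KAP1 peak of the other line, and the shares over the whole lists were 85.9% and 45.3%. A region of all 4 lists lay in the body or within 20 kb of 2.15% of 22367 protein-coding genes, and of all 6 genes studied here. The 6 genes were chosen for their known control regions, so that nothing is read from this difference.

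Peg10 is a gene derived from a retrotransposon that is needed for the placenta, and Sgce encodes epsilon-sarcoglycan, a membrane protein. They are transcribed away from each other, with starts 102 bp apart. Peg10 (ENSMUSG00000092035.1) spans chr6:4697306-4710514 on the plus strand, and Sgce (ENSMUSG00000004631.9) spans chr6:4624350-4697204 on the minus strand. The control region lay in the Peg10 gene, downstream of the Peg10 start and upstream of the Sgce start for 3 of the 4 lists. The ZFP57 peak was 600 bp wide in JB1 (chr6:4697701-4698300) and 750 bp wide in BJ1 (chr6:4697551-4698300). Both ended at the same window edge, 994 bp downstream of the Peg10 start, and neither reached that start. The KAP1 peak was 1350 bp wide in JB1 (chr6:4697551-4698900) and 1650 bp wide in BJ1 (chr6:4697101-4698750). Only the KAP1 peak of BJ1 covered the starts of Peg10 and Sgce, while that of JB1 began 245 bp downstream of the Peg10 start.

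A second site with ZFP57 lay in the Peg10 coding exon, more than 8 kb downstream of the start. It had a ZFP57 peak of 450 bp in JB1 (chr6:4705801-4706250), a KAP1 peak of 1050 bp in JB1 (chr6:4705651-4706700) and a KAP1 peak of 900 bp in BJ1 (chr6:4705801-4706700), and no ZFP57 peak in BJ1. Of all JB1 ZFP57 peaks, 52.4% had this pattern, with KAP1 in both lines and no ZFP57 in BJ1. The site held no motif, as did 47.6% of the JB1 ZFP57 peaks, and its CpG ratio of observed to expected was 0.551, against 1.29 at the control region of the same gene. The remaining body of Sgce had no peak of any list.

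Mest, also known as Peg1, encodes a protein of the alpha/beta hydrolase family, and Copg2 encodes a gamma subunit of the coatomer of transport vesicles. The 3′ ends of the genes overlap by 904 bp. Mest (ENSMUSG00000051855.8) spans chr6:30673547-30698457 on the plus strand and Copg2 (ENSMUSG00000025607.8) spans chr6:30697554-30846794 on the minus strand. The annotation has 13 Mest transcripts, of which 5 start inside the JB1 ZFP57 peak, 5 upstream and 3 downstream of it. The first of the protein-coding transcripts inside the peak starts at position 30688050, which is 14503 bp into the gene and is called the inner start here. The control region lay across this inner start in all 4 lists. As the start was chosen for lying inside the peak, nothing is read from this. The ZFP57 peak was 2250 bp wide in JB1 (chr6:30687001-30689250) and 1950 bp wide in BJ1 (chr6:30687151-30689100), and the KAP1 peak was 2850 bp wide at the same position in both lines (chr6:30686551-30689400). The upstream start of Mest had no peak of any list within 1 kb, nor had the start of Copg2, which lies 157544 bp beyond the end of the JB1 ZFP57 peak.

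The other peaks of the Mest and Copg2 window were 2 KAP1 peaks of BJ1 in an intron of Copg2. They were 600 bp wide (chr6:30811651-30812250) and 300 bp wide (chr6:30812701-30813000), the latter at the narrowest width of the list. Neither overlapped a peak of another list, which was so for 54.5% of the BJ1 KAP1 peaks. In JB1, the next ZFP57 peaks around the Mest control region were 1643850 bp upstream and 1113150 bp downstream. At Peg10 the next ones were 337500 bp away on the Sgce side and 7500 bp away in the coding exon, and at Nap1l5 they were 87750 and 257400 bp away. In BJ1, with fewer peaks, the next ones were 1644000 and 1371000 bp away at Mest and 105600 and 1481550 bp away at Nap1l5. At Peg10 there was none on the Sgce side, and the next on the other side was 3831750 bp away. The order of the control regions by these distances thus differed between the lines.

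Nap1l5 encodes a relative of the nucleosome assembly proteins, and Herc3 encodes a ubiquitin ligase of the HECT family. Nap1l5 (ENSMUSG00000055430.3), at chr6:58855228-58857120 on the minus strand, lies inside Herc3 (ENSMUSG00000029804.9), at chr6:58781459-58870392 on the plus strand, and their starts are 75661 bp apart. The control region covered the Nap1l5 start in all 4 lists, with its 5′ UTR and part of its coding exon. For the full-length Herc3 transcripts this is an intron, and the transcript Herc3-008 starts inside the peaks, 136 bp from the Nap1l5 start. The ZFP57 peak was 900 bp wide in JB1 (chr6:58856551-58857450) and 750 bp wide in BJ1 (chr6:58856701-58857450). The KAP1 peak of JB1 had the same edges as the ZFP57 peak, and that of BJ1 was 1200 bp wide (chr6:58856401-58857600). The main start of Herc3 had no peak within 1 kb.

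Upstream of Herc3, an intergenic site had a ZFP57 peak of 300 bp (chr6:58768501-58768800) and a KAP1 peak of 1050 bp (chr6:58767751-58768800) in JB1, and no peak in BJ1. This pattern was found for 2.93% of the JB1 ZFP57 peaks. The ZFP57 peak had the narrowest width of its list and held no motif, and the KAP1 peak held 1 motif outside the ZFP57 peak.

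**Figure D2:**
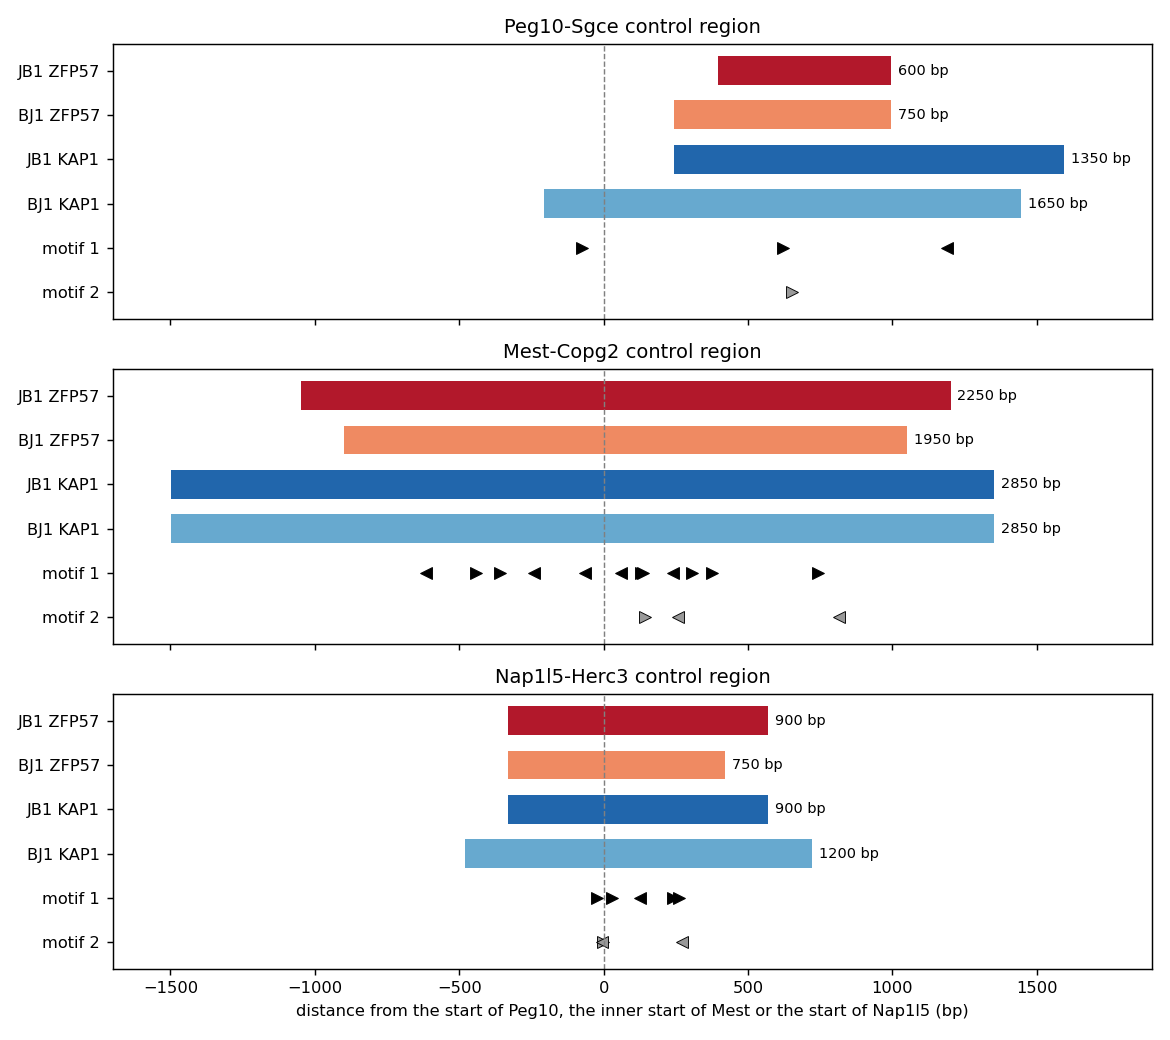
Peaks and motifs of the 3 control regions, with the distance in bp from the start of Peg10, the inner start of Mest or the start of Nap1l5 on the x axis (dashed line). Coloured bars are the peaks of the 4 lists with their widths, and arrowheads are TGCCGC (motif 1, black) and GGCCGC (motif 2, grey) in the direction of their strand relative to the gene. The Peg10 peaks of ZFP57 lie downstream of the start with 2 motifs, and those of Mest and Nap1l5 cover the start with 15 and 8 motifs in JB1. The inner start of Mest was chosen for lying inside the peak.

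Within each line, the ZFP57 peak lay wholly inside the KAP1 peak at all 3 control regions. This was so for 97.2% of the JB1 and 97.7% of the BJ1 ZFP57 peaks that overlapped a KAP1 peak. At Peg10, ZFP57 covered 44.4% of the KAP1 peak in JB1 and 45.5% in BJ1. At Mest, these shares were 78.9% and 68.4%, and at Nap1l5 they were 100% and 62.5%. KAP1 thus reached farthest beyond ZFP57, relative to its width, at Peg10 in both lines. Between the lines, both edges of the ZFP57 peak moved by at most 150 bp at each control region, which is 1 window of the lists. Of the 578 overlapping pairs of ZFP57 peaks, 72.8% had edges as close. The part common to all 4 lists was 600 bp long at Peg10, 1950 bp at Mest and 750 bp at Nap1l5.

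The Mest peaks were wide for their lists. In JB1, 98.7% of all ZFP57 peaks and 96.1% of all KAP1 peaks were narrower, and in BJ1 these shares were 98.9% and 98.2%. The Nap1l5 peaks were wider than 91.0% (ZFP57) and 69.0% (KAP1) of the peaks in JB1 and wider than 86.8% and 86.3% in BJ1. At Peg10, 63.9% of the JB1 ZFP57 peaks were narrower, 86.8% in BJ1, and for KAP1 84.3% in JB1 and 92.8% in BJ1. Among JB1 ZFP57 peaks that were also found in BJ1, 19.8% were narrower than the Peg10 peak, against 71.0% for Nap1l5 and 98.3% for Mest. Among BJ1 ZFP57 peaks also found in JB1, these shares were 75.6% for Peg10, 75.6% for Nap1l5 and 98.4% for Mest. The order of the control regions by ZFP57 width was therefore Mest, Nap1l5, Peg10 in JB1, with Nap1l5 and Peg10 at the same width in BJ1, and by KAP1 width Mest, Peg10, Nap1l5 in both lines.

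Other imprinted control regions were found by the same overlap of ZFP57 in both lines at 15 of 18 imprinted genes searched on other chromosomes. The shared peak nearest to the gene start, within 50 kb of the gene body, was taken as the control region. Of the 576 JB1 ZFP57 peaks that overlapped one in BJ1, 545 had KAP1 of both lines, and so had all 15 of these regions. Their ZFP57 peaks were 600 to 1650 bp wide in both lines, with a median of 900 bp in JB1 and 1050 bp in BJ1, and their KAP1 peaks were 900 to 2400 bp wide in JB1 and 900 to 2700 bp in BJ1. The Mest peak was wider than all 15 in each of the 4 lists. The Peg10 peak of JB1 was at the lowest ZFP57 width of the 15, and its KAP1 peaks were above their medians of 1200 bp in JB1 and 1500 bp in BJ1. The Nap1l5 peaks were at or below the medians in all 4 lists, and the KAP1 peak of JB1 was at their lowest width.

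**Figure D3:**
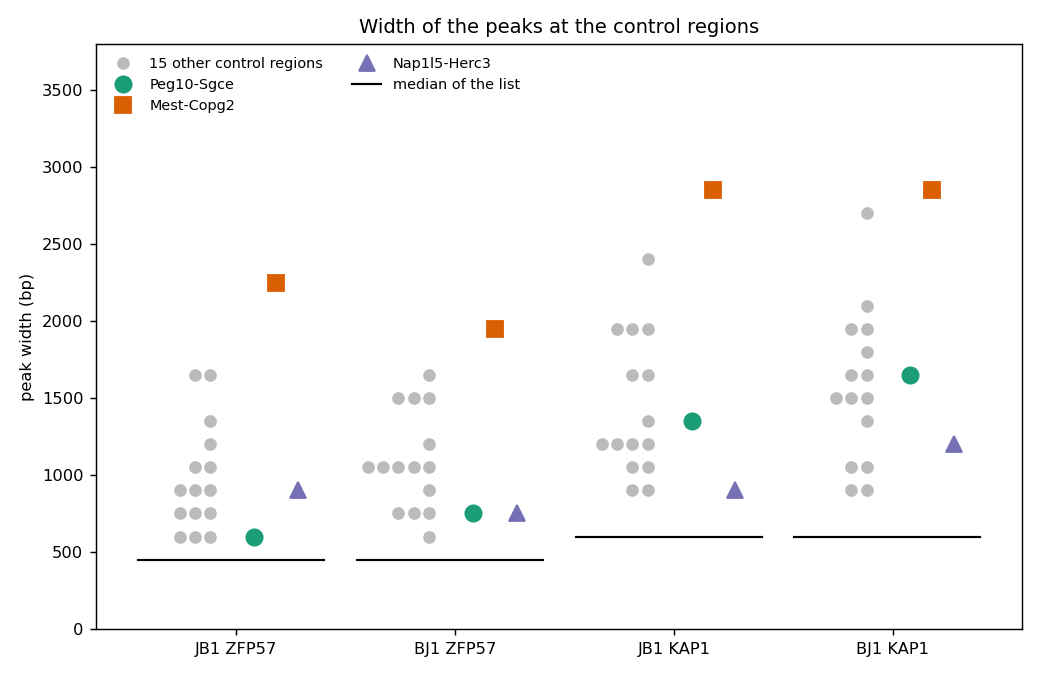
Width in bp of the peaks at the control regions in the 4 lists. Grey points are the 15 other imprinted control regions, coloured symbols the 3 control regions of chromosome 6, and lines the median over all peaks of the list. Mest is above all grey points in each list, while Peg10 and Nap1l5 lie among them.

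The control regions held 2 motifs at Peg10, 15 at Mest and 8 at Nap1l5, counted in the ZFP57 peak of JB1. The BJ1 peak held the same numbers, and so did the part common to all 4 lists. Per kb of the JB1 peak this came to 3.33 at Peg10, 6.67 at Mest and 8.89 at Nap1l5, so that Nap1l5 had the densest motifs and Mest the most. The 15 other control regions held 2 to 13 motifs with a median of 5, and 1.67 to 10.7 per kb with a median of 6.67. As many motifs as at Peg10 were found in 0.724% of the chromosome 6 windows of the same width, as many as at Mest in 0.02% and as many as at Nap1l5 in 0.0363%. Among all JB1 ZFP57 peaks, 13.8% had at least 2 motifs, 0.197% had at least 8 and 3 peaks had at least 15. In BJ1 these shares were 24.2%, 1.59% and 0.228%. The 545 JB1 ZFP57 peaks in the 541 regions of all 4 lists had a median of 2 motifs and of 2.67 per kb, so that the number at Peg10 was at the median of its class.

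By kind, Peg10 had 1 TGCCGC and 1 GGCCGC, Mest had 12 and 3, and Nap1l5 had 5 and 3. Pairs of successive motifs with starts less than 38 bp apart numbered 1 at Peg10, 3 at Mest and 5 at Nap1l5. Counted between TGCCGC only, they numbered 0, 1 and 1, and with starts less than 25 bp apart 0, 3 and 4. At Peg10 the starts were 31 bp apart on the same strand, as can be read in the intron sequence above. At Mest the 3 pairs were on the same strand, and in its first exon (the run printed above) 2 TGCCGC stood next to each other, 6 bp apart, with a GGCCGC 7 bp further on. The other pair at Mest was 15 bp apart. At Nap1l5, 3 of the 5 pairs were on opposite strands, including the GCGGCCGC directly upstream of the start, and 2 were on the same strand. Together, 6 of the 9 pairs were on the same strand and 3 on opposite strands, all of the latter at Nap1l5.

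By position, the Peg10 motifs lay 618 and 649 bp downstream of the start. The BJ1 KAP1 peak at Peg10 held 4 motifs, the pair under ZFP57 and 2 more, at 77 bp upstream and 1187 bp downstream of the start, outside both ZFP57 peaks. At Mest the motifs lay from 617 bp upstream to 814 bp downstream of the inner start, and 5 of the 15 were upstream of it. At Nap1l5 the motifs lay in a shorter stretch, from 24 bp upstream to 270 bp downstream of the start. All motifs of the Mest and Nap1l5 KAP1 peaks were also under ZFP57 in both lines.

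Base composition also differed between the control regions. The CpG ratio of observed to expected was 1.29 in the JB1 ZFP57 peak at Peg10, 0.698 at Mest and 0.743 at Nap1l5. CpG numbered 88.3 per kb at Peg10, 49.8 at Mest and 63.3 at Nap1l5, and the GC content was 52.3%, 53.7% and 58.8%. The Peg10 region thus had the most CpG per kb and the fewest motifs. At the sites with ZFP57 in JB1 only, CpG numbered 26.7 per kb in the Peg10 coding exon and 30 per kb upstream of Herc3.

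The windows held 80 motifs in all, of which 25 lay in a ZFP57 peak, 31.2%. Over chromosome 6, 2.63% of 16739 motifs lay in a ZFP57 peak of either line. Of the 8 clusters of at least 2 motifs less than 38 bp apart, 5 lay in a ZFP57 peak, 62.5%, against 4.39% of 775 clusters on chromosome 6. The 25 motifs and 5 clusters under ZFP57 all lay in the 3 control regions, so that they are not independent of each other, and the windows were placed on genes chosen for these regions, so that nothing is read from the shares. The 3 others lay at gene starts, 2 at Copg2 and 1 in the 5′ UTR of Herc3, and were in no ZFP57 or KAP1 peak. Each of the 2 at Copg2 was a single GCGGCCGC, in which a GGCCGC on each strand overlap. The Copg2 start had 6 motifs within 1 kb (1 TGCCGC and 5 GGCCGC), more than the 4 at Peg10 (2 and 2), and the Herc3 start had 4. The CpG ratios within 1 kb were 0.658 at the Copg2 start and 0.654 at the Herc3 start, neither with a peak. At the starts with all 4 lists they were 0.804 at Peg10, 0.754 at Sgce and 0.599 at Nap1l5. At the inner start of Mest, chosen for lying inside the peak, the ratio was 0.738. Starts with and without peaks thus overlapped in this ratio. The upstream start of Mest had no motif and a CpG ratio of 0.166.

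The protein-coding neighbours within 500 kb of the members numbered 24, of which 5 were at Peg10, 13 at Mest and 6 at Nap1l5. A ZFP57 peak lay in the body or within 20 kb of 2 neighbours in JB1 and of none in BJ1, and the shares over all protein-coding genes were 17.3% and 4.18%. These 2 were Abcg2, an efflux transporter gene, with a peak of 300 bp, and Gprin3, with a peak of 450 bp, and both peaks lacked KAP1 of either line and held no motif. KAP1 peaks were found for 12 neighbours in JB1 and 17 in BJ1, and for 47.1% and 78.8% of all genes. Within 1 kb of the start, no neighbour had a ZFP57 peak or a KAP1 peak of JB1, and 3 had a KAP1 peak of BJ1 (Tsga14, Klf14 and Gprin3). Over all genes, 3.32% had a KAP1 peak of JB1 there and 12.4% one of BJ1. A region of all 4 lists lay within 1 kb of the start of Peg10, Sgce and Nap1l5, which was so for 0.0984% of all genes. Peg10 and Sgce share 1 region, and the members were chosen for their control regions, so that nothing is read from this.

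The nearest neighbours on either side were Casd1, an enzyme of sialic acid acetylation, at 31.0 kb and Ppp1r9a, the actin-binding neurabin, at 142 kb from Peg10 and Sgce. For Mest and Copg2 they were Tsga14 at 29.8 kb and Tsga13 at 0.187 kb, and for Nap1l5 and Herc3 they were Abcg2 at 139 kb and Fam13a at 11.7 kb. Of these 6 genes, Casd1 had no peak of any list in the body or within 20 kb. Ppp1r9a had 2 KAP1 peaks in JB1 and 9 in BJ1, Tsga14 had 1 in BJ1, at its start, and Fam13a had 1 in BJ1. Tsga13 had 4 in JB1 and 3 in BJ1, and Abcg2 had 4 and 11.

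Motifs were found within 1 kb of the starts of 16 of the 24 neighbours, and of 64.6% of all protein-coding genes. Casd1 and Ppp1r9a each had 12 motifs within 1 kb of the start, Klhdc10 had 7 and Ube2h had 6, and none of these 4 starts had a peak of any list. The control region at Peg10, between Casd1 and Ppp1r9a, had 2 motifs under ZFP57. Over all protein-coding genes, 5865 starts (26.2%) had at least 4 motifs within 1 kb, and 0.358% of these had a ZFP57 peak of either line there. Peg10, Sgce and Nap1l5 were among the 21 genes that did, and Copg2 and Herc3 were not. As the members were chosen for their control regions, nothing is read from this.

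**Figure D4:**
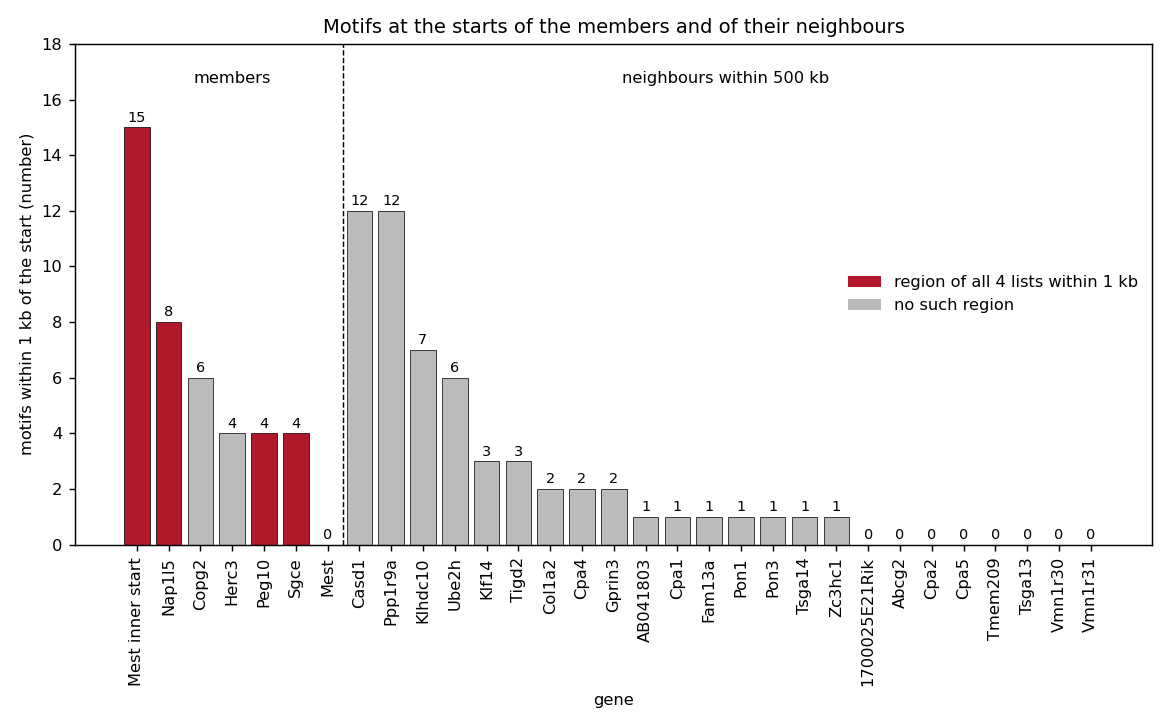
Number of TGCCGC and GGCCGC motifs within 1 kb of the gene start (y axis) for the 6 members, the inner start of Mest and the 24 neighbours. Red bars are starts with a region of all 4 lists within 1 kb and grey bars those without. The inner start of Mest was chosen for lying inside the peak. Red and grey starts overlap in motif number, with 4 at Peg10 in red and 12 at Casd1 and Ppp1r9a in grey.

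A list of 21 genes with reported imprinting or position in these clusters was examined in the same way, and 20 had a gene model on chromosome 6. Only Calcr, the calcitonin receptor gene, had a ZFP57 peak in the body or within 20 kb, in JB1, and none had one in BJ1, against 17.3% and 4.18% of all protein-coding genes. KAP1 peaks were found for 10 of the 20 in JB1 and 12 in BJ1, against 47.1% and 78.8%, so that the JB1 share was near that of all genes. No start had a ZFP57 peak within 1 kb. KAP1 was at the start of Tfpi2 in JB1 and at the starts of Pon2, Klf14, Cep41 (Tsga14) and Pigy in BJ1, and over all genes at 3.32% and 12.4% of the starts. Motifs were present at 14 of the 20 starts, near the 64.6% of all genes, and Casd1, Ppp1r9a and Tfpi2 had at least 4.

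Within 500 kb of the 6 genes and outside the windows, ZFP57 had 10 peaks in JB1 and 1 in BJ1, and none was shared by the lines. Over the whole lists, 5.4% of the JB1 and 43.6% of the BJ1 ZFP57 peaks overlapped one of the other line, so that nothing is read from this. These 11 peaks around the windows lay around Peg10 (4) and Nap1l5 (7), and there was none around Mest. The peaks were 300 to 600 bp wide, and 8 of the 11 overlapped no KAP1 peak of either line, which was so for 38.8% of all ZFP57 peaks in JB1 and 43.2% in BJ1. The BJ1 peak (chr6:58750801-58751100) lay 30.4 kb upstream of Herc3, was 300 bp wide and held no motif. The control regions, which were chosen by the overlap of the lists, were the 3 places within 500 kb of these genes where the ZFP57 peaks of both lines overlapped.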

How the data were processed

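The 4 peak lists (ZFP57 or KAP1, each in JB1 or BJ1) were used as deposited by the authors, and the 2 inputs were left aside. Per the methods of the study, 50 bp single-end reads were aligned to mm9 with up to 2 mismatches, and peaks of each library were called with MACS at a threshold of 1e-05. The submitters' processing notes name CASAVA 1.8.2, Bowtie 0.12.7 and SAMtools 0.1.18. The deposited lists give chromosome, start and end counted from 1, on a grid of 150 bp, without scores or read counts. Edges are thus known to 1 grid step, the read depth is unknown, and width was used where a score would have been.

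Peaks overlapped when they shared at least 1 bp. Motifs were exact matches on both strands wholly inside a peak, read from the mm9 genome with pysam 0.24.0 in Python 3.11.15, and exact binomial intervals, used only to judge the alternatives, were computed with scipy 1.17.1. The overlap and motif searches were tested on simulated data. Genes were those of GENCODE M1. The text names the 6 members, the nearest neighbour on either side, neighbours with a ZFP57 peak and a list of imprinted neighbours, and other genes with many motifs or with KAP1 at their start, named after seeing their values. The members and the lists were chosen with earlier results of these data known. Other flanks, narrower peak sets, overlaps, motif sets and spacings were tried. With 1 library per line and antibody, no P-value was computed.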

Additional observations from a re-analysis of the deposited data

Results flagged for a closer look

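The lines differed in opposite directions for the antibodies in a pair of measures, and none of these differences was tested, since each rests on 1 library per line. At the Nap1l5 control region, the JB1 minus BJ1 difference in width was 150 bp for the ZFP57 peak and -300 bp for the KAP1 peak. This was so at 1 of the 3 control regions: at Peg10 both peaks were wider in BJ1, and at Mest the KAP1 peaks had the same width. In the 3 windows together, the JB1 minus BJ1 difference in the number of peaks was 2 for ZFP57 and -1 for KAP1. The whole lists differed the same way, with 10667 against 1318 ZFP57 peaks and 38713 against 72535 KAP1 peaks. Line, cross, depth and library cannot be told apart.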

How the results depend on the processing

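The 3 control regions were found with every flank, with an overlap of 50% of the shorter peak and in peaks at or above the median width of each list. Because of ties, that planned set of the widest 50% held 57.4 to 69.4% of each list, and for ZFP57 it was the set wider than the narrowest width. Peaks wider than the median (28.8 to 45.7% of each list, chosen after seeing the data) also left all 3, with 3 JB1 ZFP57 peaks in the windows. A flank of 50 kb raised the number of KAP1 peaks in the windows to 10 in JB1 and 12 in BJ1, and the JB1 density to above that of the chromosome. With TGCCGC only, Peg10 kept 1 motif and Nap1l5 kept 5. All 3 clusters of at least 3 motifs lay in a ZFP57 peak (100%), at the Mest and Nap1l5 control regions. The genes were chosen for these regions and no share over chromosome 6 is given, so that nothing is read from this. The share of protein-coding genes with a ZFP57 peak was 12.1% in JB1 and 3.04% in BJ1 with 10 kb flanks, and 0.608% and 0.156% at gene starts only. Pairs less than 25 bp apart numbered 0 at Peg10. Of 150 values under these alternatives, 115 stayed within 1.5 times the reported count or inside the interval of the reported share. The ZFP57 site upstream of Herc3 was lost with a flank of 10 kb and with only wider peaks. No paired test was possible with 1 library per line and antibody and lists that hold positions only, so that no value comes from a test. ZFP57 and KAP1 were set side by side within each line as a description. Depth limits what the lists can show: a site without a peak in BJ1 ZFP57, the shortest list, may lie below the calling threshold, which was not tested.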
